A study of Mus musculus with 30 samples.

Results

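The data described here are the day 4 and day 0 libraries of primary mouse muscle cells, 6 of the 30 RNA-seq libraries of the series, chosen by their labelled cell type and day. Primary myoblasts are muscle precursor cells taken directly from a mouse, here from hindlimb muscle of 3 C57/Bl6J mice aged 8 weeks. The 3 day 0 libraries came from cells labelled as grown on plastic (the study's methods describe dishes coated with extracellular matrix gel, in rich medium with fetal bovine serum and basic fibroblast growth factor, FGF). The 3 day 4 libraries came from cells moved onto micropatterned gelatin, a hydrogel stamped with parallel grooves that align the cells, and switched to low horse serum to differentiate for 4 days. Day 4 cultures were briefly trypsinised before RNA extraction to enrich for myotubes, which the methods do not state for day 0. Day, substrate, medium and this enrichment therefore changed together, and their effects cannot be told apart. Replicate cultures are numbered 1 to 3 at both days. Whether each number is a separate mouse is not stated, so p-values measure the spread between these cultures.

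As background, satellite cells of adult muscle are held as precursors by the transcription factor Pax7, Notch signalling and Id proteins, which bind and block the partners of the muscle bHLH factors. MyoD (Myod1) and Myf5 mark committed myoblasts. Myogenin (Myog), Mrf4 (Myf6) and the Mef2 proteins act later, when cells leave the cell cycle, fuse through the membrane proteins Myomaker and Myomixer, and fill with sarcomeres, the repeating units of thick myosin filaments, thin actin filaments and Z discs. Excitation-contraction coupling proteins then link the membrane's electrical signal to calcium release.

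Each library held between 27.0 and 28.5 M estimated counts, with M for mega. Culture 3 stood apart from cultures 1 and 2 at both days: on a principal component analysis the first axis, 72.7% of the variance of the 9 primary libraries, separated the days, and the second, 16.5%, separated culture 3 from the other cultures. Counts of list members called are therefore also given without culture 3 where leaving it out moved them by more than 1.5 times. The labelled cell type was checked against its markers. The myoblast markers Pax7, Myod1 and Des and the myotube markers Acta1, Ttn and Ckm were all above 0 in every library, and 7 myoblast markers summed to between 3178 and 3516 CPM (CPM are a gene's counts scaled to 1 common library total) at day 0 and 4735 to 6207 CPM at day 4. Des made up most of that day 4 sum. Of the 7, Des and Itga7 were called higher at day 4 and Pax7, Myod1 and Vcam1 lower, by the test given below. The 9 myotube markers summed to 5545 to 9833 CPM already at day 0, above the myoblast sum, and to 34646 to 44887 CPM at day 4. Ttn made up most of the day 0 myotube sum. Its transcript is very long and CPM do not correct for length, so the sums do not rank the myotube markers above the myoblast markers. Markers of fibroblasts, 7 genes, summed to 3.85 to 5.27 CPM at day 0 and 5.03 to 7.91 CPM at day 4, with Lum and Tcf21 at 0 in every library. Those of endothelium, leukocytes, Schwann cells and adipocytes summed to at most 12.5 CPM in any library. Smooth muscle or pericyte markers summed to 74.1 to 149 CPM at day 0 and 181 to 221 CPM at day 4, with Myh11 and Kcnj8 under 1 CPM. Their main members moved in opposite directions, Abcc9 from 20.3, 13.9 and 0.721 to 171, 212 and 177 CPM and Rgs5 from 54.2, 59.4 and 147 to 20.1, 4.50 and 1.53 CPM. Tenocyte markers summed to 26.9 to 51.3 and 51.2 to 84.6 CPM, mostly Scx and Mkx. The part of these cells in the results was not tested.

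Of 14352 genes tested, 6116 (42.6%) differed between day 4 and day 0 at an adjusted p under 0.05, of which 2903 (20.2%) were higher and 3213 (22.4%) lower at day 4. All adjusted p-values are from edgeR's quasi-likelihood test with Benjamini-Hochberg adjustment, and fold changes are log2 values of day 4 against day 0 with their standard error (SE). In bulk RNA, fewer cells of a type and less RNA per cell cannot be told apart. The rises were larger than the falls: 513 of the genes called were more than 3 log2 units higher and 199 more than 3 lower, while the median over all tested genes was -0.04. Within cultures, 6106 of the 6116 had the same sign in all 3. For 6067 of the 6116 the libraries of the days did not overlap, which fixes that sign. The genes were called on these same libraries, so the shared sign is no separate support. Leaving out culture 3 gave 8209 genes, among them 5914 of the 6116, and leaving out culture 1 or culture 2 gave 3289 and 2090. With the replicate number as a block (a term for each culture), 8277 genes were called, among them 6112 of the 6116. The libraries of the days did not overlap for 54.3% of all tested genes.

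Among the myogenic transcription factors, Pax7 and Myod1 were lower at day 4, Myf6 and Mef2c were higher, and Myf5 and Myog did not pass the test. Pax7, the satellite cell factor, was at 132, 142 and 120 CPM in cultures 1, 2 and 3 at day 0 and at 26.9, 20.6 and 6.81 CPM at day 4, a change of -2.86 ± 0.56 (adjusted p = 0.00367, and 0.077 without culture 2). Myod1 went from 725, 935 and 839 CPM to 228, 248 and 204 CPM (-1.88 ± 0.15, adjusted p = 4.93e-05). Both fell in every culture, with no overlap between days. Myf5 was low throughout, at 5.20, 6.40 and 12.4 CPM at day 0 and 2.83, 3.85 and 9.55 CPM at day 4, and the days overlapped (-0.56 ± 0.83, adjusted p = 0.629). It was lower at day 4 within each culture, with changes of -0.69, -0.61 and -0.34 on the log2(CPM + 1) scale. With the replicate block the change was -0.69 (adjusted p = 0.221), and with the block in a fit of the 6 day 0 and day 4 libraries alone, -0.60 (0.0437).

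Myog, the factor that drives entry into terminal differentiation, was already high at day 0: 517, 544 and 204 CPM at day 0 against 679, 658 and 365 CPM at day 4. Culture 3 was the lowest at both days and the days overlapped, although each culture was higher at day 4 than at day 0. The change was 0.43 ± 0.43 (adjusted p = 0.46). With the replicate block it was 0.50 (adjusted p = 0.00945), and without culture 3 it was 0.37 (adjusted p = 0.0141). Myf6, a factor of late myotubes and fibres, rose from 0.163, 0.348 and 0.134 CPM to 4.43, 6.68 and 4.96 CPM (4.62 ± 0.40, adjusted p = 6.64e-05). Mef2c, which works with the bHLH factors at sarcomere genes, rose from 17.1, 13.3 and 1.61 CPM to 1441, 1418 and 630 CPM, with culture 3 lowest at both days and no overlap (6.77 ± 0.89, adjusted p = 0.000485). Mef2a (1.37) and Mef2d (1.62) rose less, and Tead4, a TEA-domain partner of muscle genes, rose from 34.9 to 38.4 CPM to 172 to 206 CPM (2.33 ± 0.14, adjusted p = 2.01e-05).

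**Figure D1:**
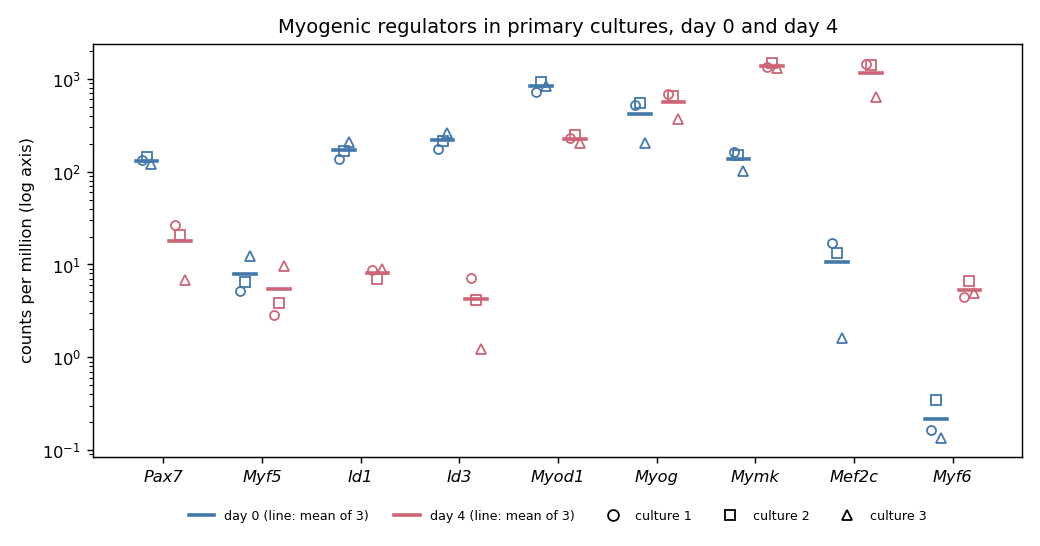
CPM on a log axis of 9 regulators in the 3 primary cultures at day 0 (blue) and day 4 (red), 1 symbol per culture, with a line at the mean of the 3. Pax7, Id1, Id3 and Myod1 are lower at day 4 and Mymk, Mef2c and Myf6 higher, while the days overlap for Myf5 and Myog.

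Of the Id genes, which encode inhibitors of these factors, Id1, Id2 and Id3 fell and Id4 did not pass the test. Id1 went from 136, 168 and 210 CPM to 8.63, 6.98 and 8.99 CPM (-4.38 ± 0.22, adjusted p = 8.83e-06), and Id3 from 177, 215 and 261 CPM to 7.22, 4.19 and 1.24 CPM (-5.69 ± 0.83, adjusted p = 0.00081). The change of Id2 was -2.68, and Id4 was at 0.538 to 1.14 CPM over both days (0.24 ± 0.54, adjusted p = 0.753). Also lower were the transcriptional coactivator Eya2 (-5.98 ± 0.51) and the E protein Tcf3 (-1.83 ± 0.13). Over the list of 34 myogenic factors and partners, 5 were higher and 15 lower, with a median of -0.60. For this and every later list, the shares to set beside the counts are those of all tested genes, 20.2% higher and 22.4% lower. Without culture 3 the counts were 10 higher and 16 lower, and without culture 2, 8 were lower.

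The stretch before the Myog start is shown because its hexamers are the kind of site that Myod1 and Myog proteins bind. Capitals mark E-boxes, CANNTG, which reads as CANNTG on both strands. The window (GRCm38.p6, chr1:134289844-134290003, plus strand, RefSeq) ends at the base before the RefSeq start of the gene and holds E-boxes that begin 138 and 12 bases upstream. Annotated exons cover 15 of its 160 bases.
Myog: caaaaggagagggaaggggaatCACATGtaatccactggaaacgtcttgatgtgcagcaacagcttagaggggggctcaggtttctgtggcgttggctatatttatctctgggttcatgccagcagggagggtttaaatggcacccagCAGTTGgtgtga
E-boxes are common. Of the 10763 tested genes with a RefSeq promoter, 57.5% held at least 1 E-box in the 250 bases before the start, as did 60.4% of the genes higher at day 4 and 53.4% of those lower.

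Surface and Notch genes of satellite cells were mostly lower at day 4. Of 29 tested, 2 were higher and 17 lower (7 lower without culture 2, 5 higher with the block and 4 higher without culture 3), with a median of -1.04. Cxcr4, the receptor of the chemokine Cxcl12, fell from 24.8, 30.7 and 24.9 CPM to 3.24, 2.50 and 2.11 CPM (-3.36 ± 0.22, adjusted p = 2.23e-05). Its ligand fell too, Cxcl12 going from 334, 402 and 236 CPM to 11, 7.75 and 1.47 CPM (-5.58 ± 1.03, adjusted p = 0.00261, and 0.068 without culture 2). Both genes were lower in each day 4 library than in any day 0 library. The FGF receptor Fgfr4 (-3.40 ± 0.34), the hepatocyte growth factor receptor Met (-1.65 ± 0.19) and the adhesion molecule Vcam1 (-3.57 ± 0.82) fell. Of the Notch pathway, the DNA-binding subunit Rbpj fell from 376, 368 and 264 CPM to 89.7, 86.7 and 70.5 CPM (-2.03 ± 0.18, adjusted p = 7.22e-05), the target Hes1 fell (-2.04), and so did the receptors Notch1 (-1.47), Notch2 (-1.20) and Notch3 (-1.97) and the modifier Lfng (-5.40). The members that rose were Itga7, an integrin subunit that muscle fibres also use to hold laminin (1.47), and Spry1 (1.40).

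Of 34 fusion genes, 10 were higher and 9 lower, with a median of 0.06, against 20.2% and 22.4% of all tested genes. Without culture 1 the lower count was 4, without culture 2 it was 2, and without either culture's day 0 library alone it was 5. Mymk, which encodes Myomaker, went from 162, 150 and 101 CPM to 1352, 1490 and 1312 CPM (3.33 ± 0.19, adjusted p = 1.47e-05). Mymx, which encodes Myomixer, went from 15.4, 19.4 and 12.9 CPM to 42.9, 48.0 and 131 CPM, highest in culture 3 (2.22 ± 0.75, adjusted p = 0.0411). The call was lost on leaving out day 4 of culture 3 (1.52, adjusted p = 0.14) or of culture 2 (0.054), any day 0 library (0.088 to 0.11), or the whole of culture 1 (0.12) or culture 2 (0.11). Tmem182, a muscle membrane protein, rose 4.48 ± 0.39, and Dock5, an exchange factor for Rac, 2.10 ± 0.14. The scaffold gene Tanc1 fell from 337, 358 and 355 CPM to 97.4, 110 and 125 CPM (-1.66 ± 0.14), and annexins Anxa1 (-1.71) and Anxa5 (-1.67) fell.

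Of the 27 lists, thick filament genes had the highest median. Of 32 thick filament and M band genes tested, 30 were higher and 0 lower, with a median of 4.06, and together they took 0.578% to 1.03% of all counts at day 0 and 5.02% to 5.86% at day 4. For the 29 thin filament genes the counts were 19 higher and 4 lower (median 2.79), and for the 38 genes of the Z disc, I band and intermediate filaments 29 higher and 2 lower (median 2.56, and 19 higher without culture 2). The thin filament members that fell were Tpm4, Nebl, Tmod3 and Capza1, which encode forms also used in the cytoskeleton of other cells, and the lower count was 0 without culture 1 or without culture 2.

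**Figure D2:**
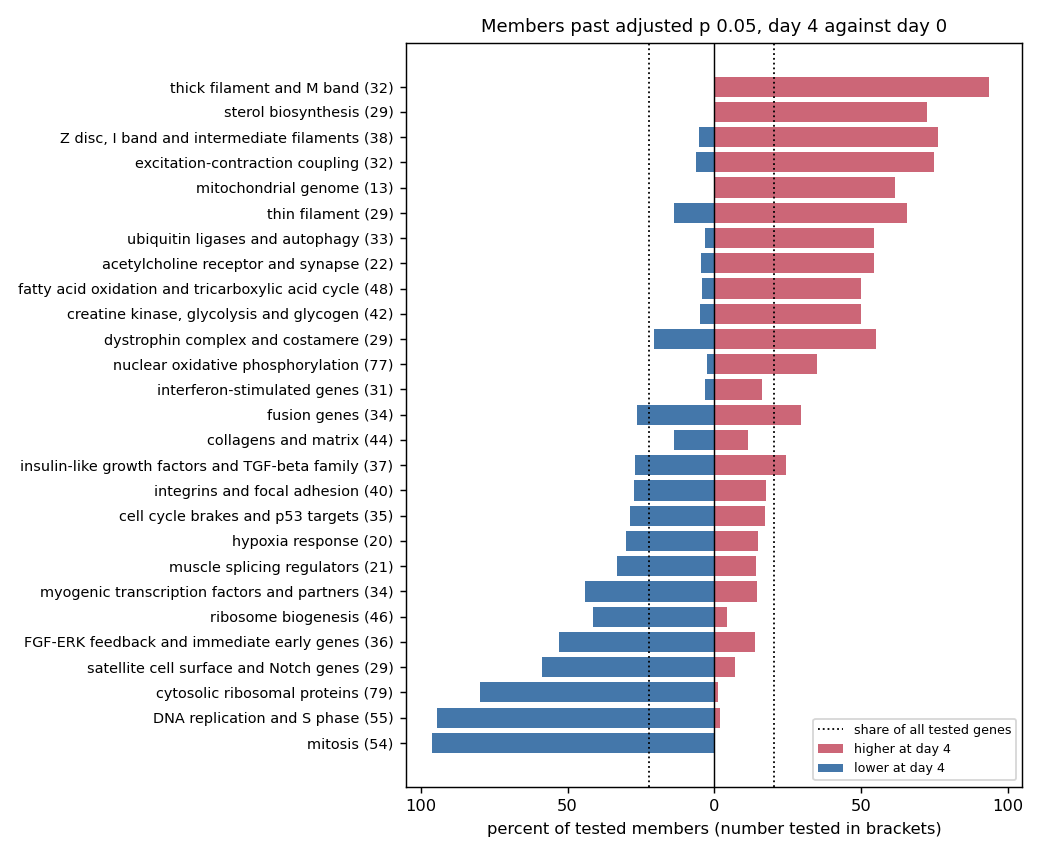
Percent of the tested members of each of 27 gene lists that were higher (red, to the right) or lower (blue, to the left) at day 4 at an adjusted p under 0.05. The dotted lines mark the shares of all tested genes, 20.2% higher and 22.4% lower; thick filament genes lie at one end and mitosis genes at the other.

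The skeletal myosin heavy chains lie side by side on mouse chromosome 11 (GRCm38): Myh3 at chr11:67078300-67102291, Myh2 at chr11:67171027-67197517, Myh1 at chr11:67200052-67224575, Myh4 at chr11:67238029-67260446 and Myh8 at chr11:67277124-67308634. Their levels were compared as TPM, a share of all transcripts that corrects for their length. Embryonic Myh3 was at 60.2, 44.1 and 5.60 TPM at day 0 and 2280, 2448 and 587 TPM at day 4 in cultures 1 to 3. Perinatal Myh8 went from 6.53, 3.27 and 1.11 TPM to 709, 1002 and 333 TPM. Adult fast Myh1 (type IIx) went from 50.5, 30.5 and 9.33 TPM to 778, 1327 and 1607 TPM. So in cultures 1 and 2 the embryonic gene was the most abundant of these at day 4, and in culture 3 it was Myh1. Adult fast Myh4 (type IIb) reached only 14.4, 39.9 and 35.5 TPM from at most 0.130 TPM, and Myh2 (type IIa) stayed under 1.5 TPM in every library. Slow Myh7, on another chromosome, went from 28.6, 17.7 and 2.67 TPM to 325, 351 and 101 TPM.

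On the count scale, all of these rose with no overlap between days: Myh4 by 8.47 ± 0.67 (adjusted p = 4.58e-05), Myh8 by 7.63 ± 0.97 (adjusted p = 0.000398), Myh3 by 5.68 ± 1.07 (adjusted p = 0.00292, and 0.069 without culture 2), Myh1 by 5.55 ± 0.62 (adjusted p = 0.000208) and Myh7 by 4.10 ± 0.98 (adjusted p = 0.00941, and 0.068 and 0.12 without cultures 1 and 2). Myh2 rose by 5.81 ± 1.18 from 1 library above 0 at day 0 (adjusted p = 0.00436, and 0.085 without culture 2). The coding regions of these genes are alike, and reads that match several of them were divided by estimation, so the levels of the rarer members are uncertain.

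**Figure D3:**
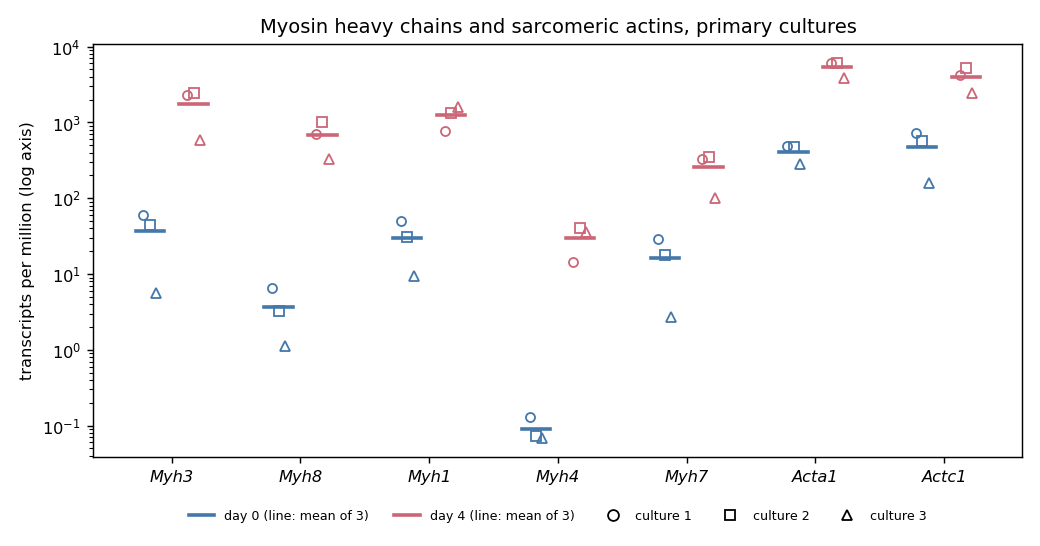
TPM on a log axis of 5 myosin heavy chain genes and the sarcomeric actins Acta1 and Actc1 at day 0 (blue) and day 4 (red), 1 symbol per culture, with a line at the mean of the 3. Every gene is higher at day 4 in all cultures, and culture 3 is the lowest at day 4 for Myh3, Myh8, Myh7 and both actins but the highest for Myh1.

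The starts of the neighbours Myh4 and Myh8 both hold an E-box and a MEF2 match, so both are shown. Capitals mark E-boxes and, as the run of 10 bases in each, a match to the MEF2 motif, both read from RefSeq (GRCm38.p6, plus strand) up to the base before the start. The Myh4 window is chr11:67237582-67237811, with E-boxes beginning 221 and 67 bases upstream and the MEF2 match 182 bases upstream, and the Myh8 window is chr11:67277014-67277123, with an E-box 32 and the MEF2 match 99 bases upstream.
Myh4: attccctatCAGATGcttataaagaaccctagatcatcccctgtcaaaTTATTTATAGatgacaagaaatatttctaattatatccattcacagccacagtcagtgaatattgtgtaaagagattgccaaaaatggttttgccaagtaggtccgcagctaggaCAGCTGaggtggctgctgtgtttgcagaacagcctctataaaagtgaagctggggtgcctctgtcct
Myh8: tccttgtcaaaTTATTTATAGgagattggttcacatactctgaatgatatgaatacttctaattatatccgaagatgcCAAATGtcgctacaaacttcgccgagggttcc
A MEF2 match was found in 1.73% of the promoters of all tested genes and 2.75% of those higher at day 4. In the thick filament list it was found in 6 of 27 promoters and an E-box in 23 of 27. These matches describe letters and show no binding.

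Other sarcomere genes rose from levels that were not low. Ttn, which encodes the giant elastic protein titin, was at 7461, 3928 and 4822 CPM at day 0 and 26604, 25600 and 26090 CPM at day 4 (2.27 ± 0.27, adjusted p = 0.000298). Neb, for the thin filament ruler nebulin, went from 2618, 1906 and 1736 CPM to 10215, 9477 and 10339 CPM (2.26 ± 0.21, adjusted p = 9.16e-05). Per length, skeletal actin Acta1 was above Ttn at day 4, at 6122, 6134 and 3839 TPM against 1187, 1038 and 988 TPM. Acta1 rose 3.77 ± 0.41 and cardiac actin Actc1, the fetal form, 3.14 ± 0.63 (adjusted p = 0.00389, and 0.074 without culture 2). Actn2, the Z disc alpha-actinin, went from 59.1, 56.9 and 36.6 CPM to 1756, 2104 and 1502 CPM (5.13 ± 0.37, adjusted p = 3.32e-05), and desmin, Des, from 1220, 1323 and 1424 CPM to 3624, 3431 and 4405 CPM (1.53 ± 0.15, adjusted p = 0.000124). The non-muscle intermediate filament gene Vim fell from 3421, 3864 and 3642 CPM to 1142, 969 and 1228 CPM (-1.71 ± 0.17).

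Among the smallest adjusted p-values in these lists were those of some assembly and regulatory genes with little spread between cultures. Structural genes, such as Mybpc1, were also among them. Unc45b, the myosin chaperone, rose from 12.4, 10.9 and 7.70 CPM to 187, 231 and 241 CPM (4.41 ± 0.22, adjusted p = 8.83e-06). Lmod2, which elongates thin filaments, went from 12.1, 10.7 and 13.0 CPM to 252, 282 and 346 CPM (4.62 ± 0.17, adjusted p = 7.07e-06). Fast troponin C, Tnnc2, went from 5.82, 4.90 and 6.35 CPM to 290, 312 and 526 CPM (6.04 ± 0.30, adjusted p = 8.83e-06), and Klhl40, which stabilises thin filament proteins, from 4.44, 5.01 and 3.43 CPM to 133, 136 and 128 CPM (4.94 ± 0.20, adjusted p = 7.07e-06). In each, every day 4 library was above every day 0 library. Myl6b, Myom3, Tmod1, Pdlim3, Cavin4, Ankrd23 and Tcap rose by between 3.23 and 5.69.

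Of 32 excitation-contraction coupling genes, 24 were higher and 2 lower (Asph and Fkbp1a, which also act outside muscle, and 0 without culture 1 or culture 2), with a median of 2.82. Cacna1s, the voltage sensor of the T tubule, went from 34.5, 28.8 and 10.4 CPM to 856, 1029 and 568 CPM (5.06 ± 0.57, adjusted p = 0.000215). Ryr1, the calcium release channel, was already at 359, 381 and 287 CPM and went to 2368, 2802 and 2160 CPM (2.83 ± 0.21, adjusted p = 3.44e-05). The channel subunit gene Cacng1 rose 3.71 ± 0.15, the triad protein gene Trdn 4.00 ± 0.24, the calcium pump Atp2a2 2.34 ± 0.15 and the calcium store protein Casq1 7.31 ± 0.63. Sln, the pump inhibitor sarcolipin, stayed under 0.5 CPM in every library (adjusted p = 0.0589, and 0.00672 with the replicate block).

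Of 22 acetylcholine receptor and synapse genes, 12 were higher and 1 lower, with a median of 0.65. Without cultures 1 and 2, 7 and 6 were higher, and with the block 3 were lower. The receptor subunits were abundant at day 0. Chrna1 was at 1586, 1912 and 1087 CPM at day 0 and 1671, 2020 and 2082 CPM at day 4, with overlap (0.33 ± 0.23, adjusted p = 0.272). Chrng, the fetal subunit, went from 365, 396 and 423 CPM to 655, 682 and 873 CPM, with no overlap (0.90 ± 0.17, adjusted p = 0.00285, and 0.068 without culture 2). The adult subunit Chrne rose from at most 0.131 CPM to 0.260, 1.14 and 0.338 CPM (2.47 ± 0.81, adjusted p = 0.0365). Musk, the kinase that clusters receptors, rose from 115, 113 and 86.1 CPM to 252, 273 and 314 CPM (1.42 ± 0.16), and the kinase Camk2a (4.11 ± 0.20) and the neuregulin receptor Erbb3 (3.66 ± 0.31) rose more, while Rapsn, the receptor anchor, was at 73.0 to 107 CPM at day 0 and 71.6 to 106 CPM at day 4.

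The Chrng start is shown for its 3 E-boxes, in capitals, which begin 155, 132 and 75 bases upstream (GRCm38.p6, chr1:87205651-87205810, plus strand, RefSeq). Of the 15 genes of this list with a RefSeq promoter, 12 held an E-box.
Chrng: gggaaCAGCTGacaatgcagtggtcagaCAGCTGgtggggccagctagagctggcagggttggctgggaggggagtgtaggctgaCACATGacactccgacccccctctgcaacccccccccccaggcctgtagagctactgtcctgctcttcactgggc

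Of 29 genes of the dystrophin complex and costamere, which tie the sarcomere to the matrix, 16 were higher and 6 lower (median 0.62, and 3 lower without culture 1 or culture 2). The syntrophin Sntb1 (2.40 ± 0.17), Itgb1bp2 (5.12 ± 0.45) and the caveolin Cav3 (4.2 ± 0.47) rose. Dmd, which encodes dystrophin itself, rose from 66.1, 37.6 and 21.4 CPM to 469, 314 and 252 CPM (3.05 ± 0.50, adjusted p = 0.00147). The sarcoglycan Sgce fell (-1.51 ± 0.22).

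Of 42 genes of creatine kinase, glycolysis and glycogen, 21 were higher and 2 lower (median 0.62); with the replicate block 25 were higher and 8 lower, without culture 3, 7 were lower, without culture 1, 1 was lower, and without culture 2, 12 were higher and 1 lower. Ckm, the muscle creatine kinase, rose from 2.03, 2.99 and 0.639 CPM to 204, 284 and 65.5 CPM (6.61 ± 1.39, adjusted p = 0.00505, and 0.072 and 0.081 without cultures 1 and 2). Ckb, the creatine kinase of brain and many other tissues, also rose, from 34.6, 43.1 and 35.2 CPM to between 102 and 132 CPM (1.59 ± 0.28, adjusted p = 0.00213). The glucose transporter Slc2a4 (3.81 ± 0.23), muscle phosphofructokinase Pfkm (2.36 ± 0.19), muscle phosphoglycerate mutase Pgam2 (2.75 ± 0.19) and the glycogen targeting subunit Ppp1r3c (4.89 ± 0.25) rose, while the widely expressed mutase Pgam1 fell from 447, 568 and 471 CPM to 212, 173 and 171 CPM (-1.42 ± 0.22, adjusted p = 0.0011). The muscle cytochrome oxidase subunits Cox8b (4.38 ± 0.36), Cox6a2 (2.89 ± 0.25) and Cox7a1 (3.53 ± 0.41) rose. Of their widely expressed counterparts, Cox8a (-0.63 ± 0.14) and Cox6a1 (-1.01 ± 0.24) fell, and Cox7a2 did not pass the test (0.18 ± 0.11, adjusted p = 0.23).

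For nuclear genes of oxidative phosphorylation the count depended on which cultures were used, as it did for all tested genes. With all cultures, 27 of 77 were higher and 2 lower, with a median of 0.29. Without culture 3, 59 were higher (median 0.49), without culture 1, 5, and without culture 2, 4. Over all tested genes the counts higher were 2903 with all cultures, 4125 without culture 3, 1558 without culture 1 and 1109 without culture 2. Culture 3 had the highest summed level of the oxidative phosphorylation genes at day 0. The median change within cultures 1, 2 and 3 was 0.51, 0.38 and 0.08. For the 13 protein genes of the mitochondrial genome these medians were 0.47, 0.46 and 1.20, and 8 of 13 were higher at day 4 (10 with the block, 10 without culture 3, 0 without culture 1 and 1 without culture 2). mt-Nd5, a complex I subunit, went from 1281, 1642 and 1366 CPM to 2576, 2264 and 3150 CPM (0.90 ± 0.16, adjusted p = 0.00238, and 0.062 without culture 1). Together the mitochondrial genes took 3.34% to 3.75% of counts at day 0 and 4.83% to 6.93% at day 4, culture 3 being highest at day 4 and lowest at day 0.

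Fatty acid oxidation and tricarboxylic acid cycle genes gave 24 of 48 higher and 2 lower (median 0.46, 37 higher and 4 lower without culture 3, 12 higher and 1 lower without culture 2, and 1 lower without culture 1). Fabp3, the muscle fatty acid carrier, rose from 1.96, 1.70 and 1.01 CPM to 88.8, 113 and 83.1 CPM (5.93 ± 0.32, adjusted p = 1.02e-05), and Acsl1 (1.88 ± 0.16), the dehydrogenase kinase Pdk2 (2.21 ± 0.21) and the dehydrogenase subunit Pdhb (1.05 ± 0.10) rose. Of the carnitine transferases, muscle Cpt1b rose (2.81) and the liver form Cpt1a fell from 159, 192 and 166 CPM to 52.6, 51.1 and 32.1 CPM (-1.93 ± 0.21).

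Nearly all listed cell cycle genes fell. Of 55 DNA replication and S phase genes, 52 were lower and 1 higher (E2f2, with 2 higher without culture 3 and 0 without culture 1 or culture 2), with a median of -2.23, and of 54 mitosis genes, 52 were lower and 0 higher, with a median of -2.48. Without culture 2 the mitosis count was 25. Mcm10, a replication initiation factor, went from 29.3, 34.5 and 32.2 CPM to 2.42, 1.87 and 1.20 CPM (-4.12 ± 0.28, adjusted p = 2.48e-05), and Mybl2, a subunit of the activator of G2 and M genes, from 21.5, 26.8 and 19.3 CPM to 1.64, 1.36 and 0.865 CPM (-4.12 ± 0.31, adjusted p = 3.96e-05). Cdk1, the kinase that starts mitosis, went from 45.7, 58.0 and 52.6 CPM to 10.9, 7.78 and 6.66 CPM (-2.62 ± 0.25, adjusted p = 0.000102). Days did not overlap for any of these.

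The proliferation marker Mki67 differed in level between cultures at both days: 205, 159 and 81.0 CPM at day 0 and 27.0, 12 and 4.02 CPM at day 4 (-3.37 ± 0.74, adjusted p = 0.00623, and 0.11 without culture 2). Culture 1 was highest and culture 3 lowest each time. Ccnb1 went from 26.4, 27.6 and 12 CPM to 9.30, 5.14 and 1.54 CPM (-2.05 ± 0.60, adjusted p = 0.0232). That call was lost without culture 1 (0.051) or culture 2 (0.23) and without the day 0 library of culture 1 (0.066) or 2 (0.071) or the day 4 library of culture 2 (0.072). The 54 mitosis genes summed to 1682 to 2462 CPM at day 0 and 343 to 567 CPM at day 4.

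Promoters of G2 and M genes often hold the CHR motif, TTTGAA on either strand, where the complexes that repress and activate them bind. Cdk1 and Mki67 are shown because each has 2 copies near its start, in capitals, beginning 71 and 15 bases upstream in Cdk1 (GRCm38.p6, chr10:69352913-69353002, minus strand, RefSeq) and 116 and 98 bases upstream in Mki67 (chr7:135716380-135716499, minus strand). Annotated exons cover 26 of the 90 bases of the Cdk1 window.
Cdk1: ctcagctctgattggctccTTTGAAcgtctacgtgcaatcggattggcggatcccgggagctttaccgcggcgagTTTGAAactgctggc
Mki67: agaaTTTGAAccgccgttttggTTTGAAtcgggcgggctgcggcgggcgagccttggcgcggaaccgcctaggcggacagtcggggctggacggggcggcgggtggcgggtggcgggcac
The motif was in 13 of 44 promoters of the mitosis list (29.5%) and 6 of 42 of the S phase list, against 10.6% of all tested genes with a promoter.

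The list of cell cycle brakes and p53 targets also holds the D cyclins, which promote the cycle. It was mixed, with 6 of 35 higher and 10 lower (median -0.11), against 20.2% and 22.4% of all tested genes. Without culture 3 these counts were 10 and 16, without culture 2 they were 3 and 2, and without culture 1, 6 were lower. Cdkn1a, the p21 inhibitor that muscle cells use to stop dividing, rose from 413, 456 and 332 CPM to 1686, 1763 and 1676 CPM (2.09 ± 0.15, adjusted p = 2.97e-05), and the retinoblastoma gene Rb1 rose from 140, 124 and 103 CPM to 232, 257 and 238 CPM (0.99 ± 0.14), while its relative Rbl1 (-1.72 ± 0.16), Trp53 (-1.45 ± 0.13) and the cyclin gene Ccnd1 (-2.47 ± 0.63) fell. Cdkn1c, the p57 inhibitor, was at 3.79, 5.29 and 0.0672 CPM at day 0 and 43.3, 33.1 and 13.3 CPM at day 4, with no overlap. Its change was 3.29 ± 1.30 (adjusted p = 0.0711), and the call was made with the block (3.80, adjusted p = 0.00314) and without culture 3 (3.12, adjusted p = 0.000645).

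Growth factor feedback genes were mostly lower. The list of FGF and ERK feedback and immediate early genes had 5 of 36 higher and 19 lower (median -0.94, with 2 higher and 9 lower without culture 2). Spry2 went from 201, 255 and 212 CPM to 51.0, 50.6 and 72.3 CPM (-1.94 ± 0.17), the phosphatase gene Dusp6 from 99.1, 131 and 137 CPM to 27.2, 29.7 and 25.3 CPM (-2.16 ± 0.22), and Phlda1 from 56.1, 75.6 and 140 CPM to 10.6, 12.2 and 11.2 CPM (-3.0 ± 0.33). Fgf21, a secreted factor that stressed muscle can make, rose from 25.5, 21.7 and 22.8 CPM to 118, 112 and 108 CPM (2.27 ± 0.15, adjusted p = 2.23e-05).

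Of 37 insulin-like growth factor and TGF-beta family genes, 9 were higher and 10 lower (median -0.15), against 20.2% and 22.4% of all tested genes. Without culture 1 or culture 2, 5 were lower, and without culture 2, 3 were higher. Igf2, an autocrine factor of myoblasts, was at 5304, 5403 and 3961 CPM at day 0 and 4702, 4920 and 5753 CPM at day 4, with overlap (0.07 ± 0.16, adjusted p = 0.77). Igf1 fell from 57.1, 48.4 and 71.4 CPM to 14.2, 8.15 and 5.0 CPM (-2.69 ± 0.51, adjusted p = 0.00305), and the binding protein Igfbp3 (-2.16 ± 0.29) fell. Tgfb3 rose with very little spread, from 55.9, 52.4 and 43.6 CPM to 246, 248 and 245 CPM (2.28 ± 0.12, adjusted p = 9.14e-06). The inhibitory Smads, Smad6 (-2.46 ± 0.21) and Smad7 (-1.60 ± 0.15), fell, and the activin antagonist Fst rose from 11.2, 14.7 and 0.471 CPM to 277, 356 and 61.7 CPM (4.72 ± 1.09, adjusted p = 0.00778).

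Collagen and matrix genes differed between cultures, with median changes of 0.13, -0.30 and -1.39 within cultures 1, 2 and 3. Of 44 collagen and matrix genes, 5 were higher and 6 lower, with a median of -0.30, against 20.2% and 22.4% of all tested genes. With the replicate block 8 were higher and 16 lower, without culture 3 the counts were 12 and 13, and without culture 2 they were 2 and 2. Col3a1, a fibrillar collagen, went from 527, 562 and 538 CPM to 241, 124 and 25.0 CPM (-2.06 ± 0.95, adjusted p = 0.114, and 0.0108 with the block), and the basement membrane collagen gene Col4a1 from 587, 702 and 345 CPM to 342, 197 and 25.8 CPM (-1.53 ± 1.03, adjusted p = 0.264, and 0.0126 with the block). In both, culture 3 was the lowest at day 4 and the days did not overlap. Lox, which crosslinks collagen, rose from 6.86, 5.18 and 6.15 CPM to 72.4, 37.5 and 74.6 CPM (3.34 ± 0.52, adjusted p = 0.00115), and the laminin subunit Lamb2 rose (1.61 ± 0.21), while Col18a1 (-2.97 ± 0.42) and the matricellular gene Ccn1 (-2.54 ± 0.33) fell.

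Of 40 integrin and focal adhesion genes, 7 were higher and 11 lower (median -0.27), against 20.2% and 22.4% of all tested genes. The list's median changes within cultures 1, 2 and 3 were alike, at -0.20, -0.20 and -0.22. With the block the counts were 12 and 18, without culture 3, 12 were higher, and without cultures 1 and 2, 7 and 5 were lower. Zyx, a focal adhesion protein, fell from 563, 672 and 638 CPM to 113, 119 and 101 CPM (-2.49 ± 0.15, adjusted p = 1.9e-05). Tns1, another actin linker of adhesions, rose from 50.7, 59.0 and 51.8 CPM to 295, 381 and 228 CPM (2.48 ± 0.25), and the integrin subunit Itgb5 rose by 1.38 ± 0.13.

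Of the cytosolic ribosomal protein genes, 63 of 79 were lower and 1 higher (Rpl3l, the muscle paralogue of Rpl3, under 0.4 CPM), with a median of -0.74 and 21 lower without culture 2. They took 4.63% to 5.41% of counts at day 0 and 2.52% to 2.87% at day 4. Rpl28, a subunit of the large ribosomal particle, went from 488, 516 and 503 CPM to 235, 190 and 205 CPM (-1.26 ± 0.11, adjusted p = 7.5e-05). Of 46 ribosome biogenesis genes, 2 were higher and 19 lower (median -0.38, with 7 higher under the block or without culture 3, 1 higher without culture 1 or culture 2, and 11 and 5 lower without cultures 1 and 2).

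Sterol synthesis genes were mostly higher, with 21 of 29 called higher and 0 lower and a median of 1.60 (13 higher without culture 2). Dhcr7, for the last step of cholesterol synthesis, went from 12.6, 13.9 and 12.2 CPM to 98.7, 123 and 81.1 CPM (2.97 ± 0.23, adjusted p = 4.35e-05), and Fdps (2.31 ± 0.18), Cyp51 (2.20 ± 0.15) and Hsd17b7 (1.70 ± 0.13) rose. The regulator Srebf2 was at 95.9, 107 and 170 CPM and then 129, 138 and 132 CPM (adjusted p = 0.738, and 0.008 without culture 3).

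Ubiquitin ligase and autophagy genes gave 18 of 33 higher and 1 lower (median 0.98), with 3 lower without culture 3 and 0 without culture 1 or culture 2. Several that rose are adaptors, found in muscle, that choose proteins for degradation. Asb2 went from 3.07, 4.42 and 4.50 CPM to 62.0, 86.3 and 57.2 CPM (4.10 ± 0.29), Asb15 rose 6.43 ± 0.47, Kbtbd12 4.07 ± 0.31 and Fbxo40 6.95 ± 0.61. Of the ligases known for muscle wasting, Trim63 rose from 9.28, 6.61 and 2.96 CPM to 47.8, 51.2 and 35.2 CPM (2.83 ± 0.41), and Fbxo32 fell from 187, 212 and 232 CPM to 73.5, 82.2 and 135 CPM (-1.12 ± 0.30, adjusted p = 0.0159).

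The 10 called genes with the largest rises, among those averaging 2 or more on the log2 CPM scale and with no overlap, were Asb14, Capn3, Myo18b, Mybpc2, Myh4, Cmya5, Pgm5, Zap70, Mybpc1 and Myh8. Capn3, the calpain protease bound to titin, went from 0.229, 0.243 and 0.370 CPM to 140, 223 and 159 CPM (9.25 ± 0.41, adjusted p = 7.26e-06). Mybpc1 and Mybpc2, the slow and fast myosin binding proteins C, went from 2.19, 1.84 and 1.51 CPM to 339, 430 and 402 CPM (7.72 ± 0.43) and from 0.0327, 0.104 and 0.101 CPM to 23.8, 24.5 and 56.4 CPM (8.71 ± 0.71). Cmya5, a Z disc and M band protein, went from 0.915, 1.08 and 0.134 CPM to 251, 430 and 72.1 CPM (8.46 ± 1.19).

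Asb14 had 0 counts at day 0 over the 3 libraries and 425 at day 4, at least 141-fold higher against a floor of 3 counts over the group; it was at 5.91, 8.88 and 0.902 CPM, and its call was lost without culture 1 (adjusted p = 0.065) or culture 2 (0.066). Zap70, a kinase best known from T cells, had 2 counts at day 0 and 507 at day 4, when it was at 6.99, 8.26 and 3.53 CPM. The leukocyte marker Ptprc was under 1 CPM in every library and Adgre1 was at 0, and the 5 leukocyte markers summed to 2.74 to 3.67 CPM at day 0 and 1.83 to 2.19 CPM at day 4.

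The 10 with the largest falls were Sct, Eya2, Mest, Id3, Gzmd, Cxcl12, Camk1g, Dlk2, Sema6b and Rgs4. Mest, an imprinted gene of growing mesoderm, was at 2489, 3785 and 2040 CPM at day 0 and fell to 80.1, 62.0 and 15.9 CPM (-5.72 ± 0.71, adjusted p = 0.000361). Sct, for the gut hormone secretin, went from 51.0, 56.4 and 37.9 CPM to 0.670, 0.367 and 0.376 CPM (-6.67 ± 0.29, adjusted p = 7.07e-06). Dlk2, a Notch-type ligand, went from 16.8, 20.3 and 20.2 CPM to 0.521, 0.367 and 0.639 CPM (-5.22 ± 0.38, adjusted p = 3.32e-05). Rgs4, a brake on G protein signalling, went from 10.6, 13.1 and 34.0 CPM to 1.34, 0.220 and 0.0752 CPM (-5.13 ± 0.94, adjusted p = 0.00254, and 0.061 without culture 2).

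**Figure D4:**
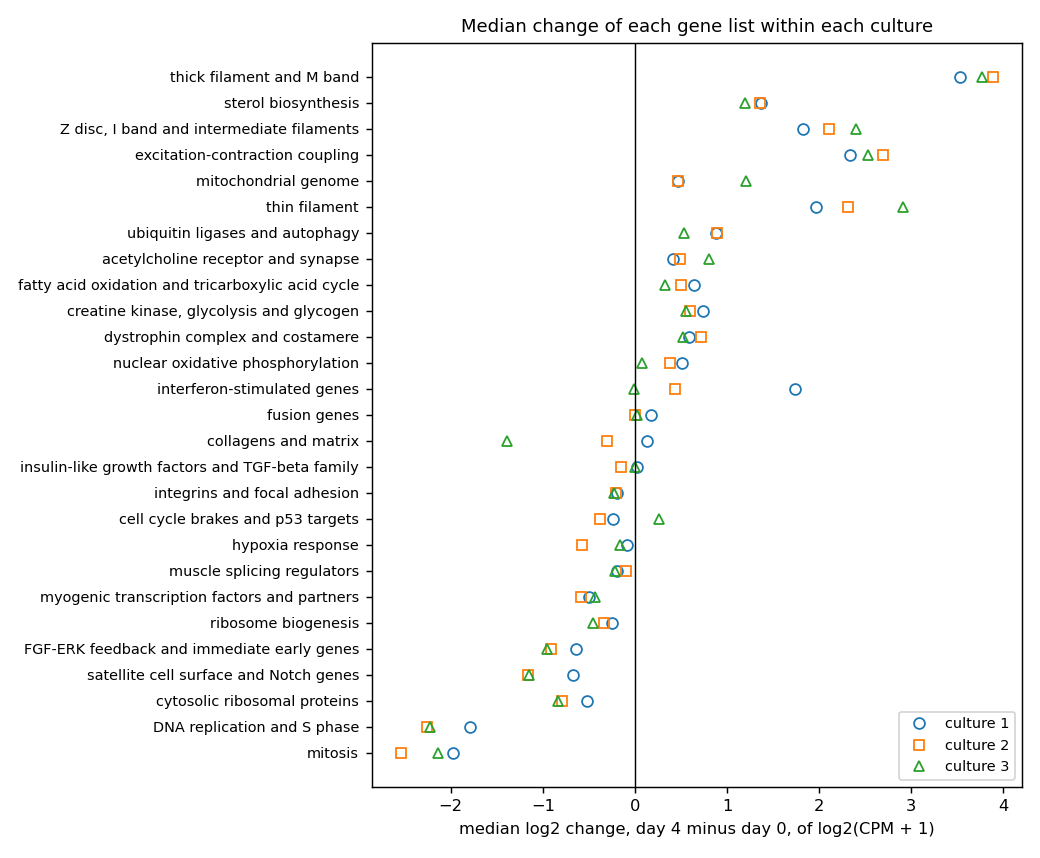
Median log2 change from day 0 to day 4, of log2(CPM + 1), of the tested members of each list within cultures 1, 2 and 3 (circle, square, triangle), in the order of the plot of shares. All cultures are positive for thick filament genes and negative for mitosis genes, while they spread for the mitochondrial genome (0.47, 0.46 and 1.20), interferon-stimulated genes (1.74, 0.43 and -0.02) and collagens and matrix (0.13, -0.30 and -1.39).

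The response was set beside that of C2C12 cells, an established mouse myoblast line taken through the same days, from plastic at day 0 to patterned gelatin at day 4. Per the study's methods the starting cultures differed in more than cell type: C2C12 cells grew on plastic dishes in another medium, with less fetal bovine serum and no FGF named. Cell type and these growth conditions cannot be told apart. In a fit of these 12 libraries, the C2C12 line had 3608 genes higher (24.1%) and 3448 lower (23.0%) of 14982 tested. This fit estimated 1 spread per gene for both cell types. Its common coefficient of variation was 0.20, against 0.29 in the fit of primary libraries. Its SE and p-values can therefore understate the spread of the primary cultures. For Pax7 the SE was 0.48 for the difference and 0.56 for the primary change alone. The change from day 0 to day 4 differed between the cell types for 2639 genes (17.6%), being higher in primary cells for 1103 (7.36%) and lower for 1536 (10.3%); with the replicate block the counts were 4018, 1664 and 2354. Of genes called in both, 2054 were higher and 2100 lower in both, 83 rose in primary cells and fell in C2C12 cells, and 106 did the reverse. The difference itself was called for all 83 and all 106. These genes were picked by opposite calls in the same libraries, so this adds no separate support. Leaving out 1 C2C12 library gave 1616 to 1736 differences for 4 of those 6 libraries.

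Among the 32 panel genes tested, the change was lower in primary cells for 11 and higher for 1, Myh4. With the replicate block it was lower for 14 and higher for 6: Myh7, Acta1 and Actc1 were added to the lower, and Myh8 (difference 2.01, adjusted p = 0.00712), Ckm (1.15, 0.00958), Ccnb1 (1.45, 0.0128), Myf6 (1.41, 0.0375) and Myf5 (0.50, 0.0383) to the higher. Without the day 4 library of culture 3, 12 were lower and 5 higher, with all 30 libraries in the fit 11 and 4, and with DESeq2 11 and 3. The values that follow are means of 3 libraries, in CPM scaled over the 12 libraries. Igf2 was at 5267 CPM at day 0 and 5499 CPM at day 4 in primary cells and went from 25.8 to 255 CPM in C2C12 cells (difference -3.25 ± 0.21, adjusted p = 7.97e-06). Chrng went from 426 to 790 CPM and from 40.0 to 438 CPM (-2.56 ± 0.23, adjusted p = 6.13e-05), and Neb from 2254 to 10746 CPM and from 174 to 4731 CPM (-2.51 ± 0.25, adjusted p = 0.000107). For these genes primary cells were higher than C2C12 cells at both days. Myog went from 453 to 611 CPM in primary cells and from 123 to 673 CPM in C2C12 cells (-2.02 ± 0.47, adjusted p = 0.0136), so the mean at day 4 was close to that of C2C12 cells. Ttn (-1.45 ± 0.32), Ryr1 (-1.40 ± 0.25), Chrna1 (-1.02 ± 0.24) and Cdkn1a (-0.81 ± 0.17) also had lower changes in primary cells. The Chrna1 call was lost without the C2C12 day 0 library 1 (adjusted p = 0.065) or 2 (0.062).

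Myod1 fell in primary cells, from 898 to 244 CPM, and was at 162 and 166 CPM in C2C12 cells (-1.91 ± 0.18, adjusted p = 8.88e-05). Id1 fell more in primary cells, from 185 to 8.80 CPM against 39.5 to 13.8 CPM (-2.87 ± 0.23, adjusted p = 3.1e-05), and so did Pax7 (-2.04 ± 0.48, adjusted p = 0.0145). By list, and without the block, the difference was lower in primary cells for 15 of 29 satellite cell and Notch genes and higher for 0, lower for 9 of 22 acetylcholine receptor and synapse genes and higher for 0, and lower for 36 of 79 ribosomal protein genes and higher for 0. Over all tested genes the difference was lower in primary cells for 10.3% and higher for 7.36%. For mitosis genes it was higher for 13 of 54 and lower for 0, with medians of -2.48 in primary cells and -3.25 in C2C12 cells. The difference for Mki67 was not called (-0.08 ± 0.72, adjusted p = 0.962).

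**Figure D5:**
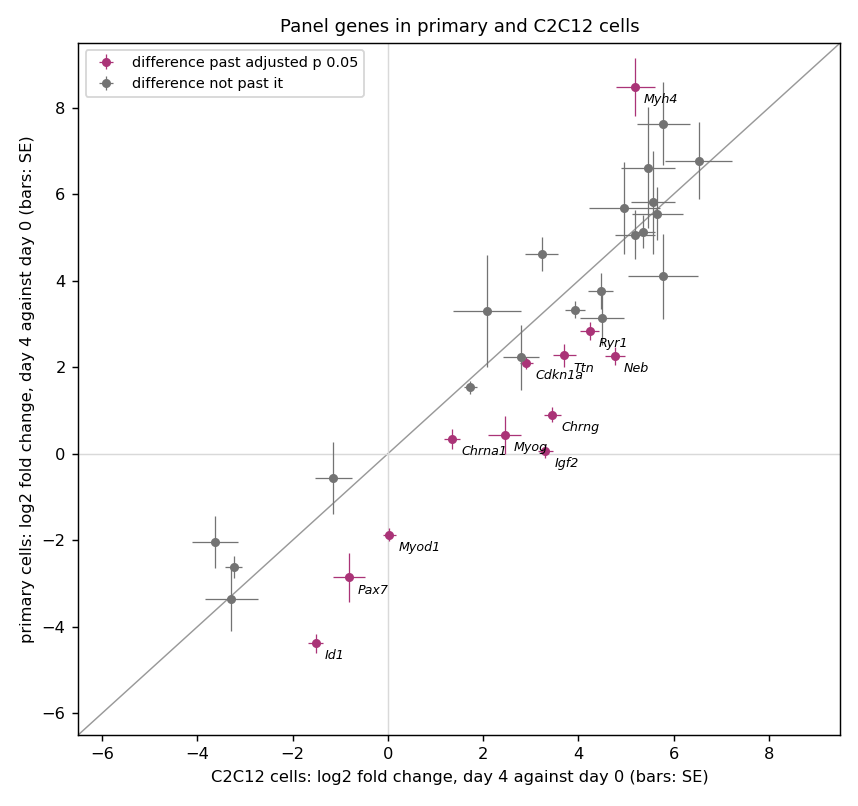
Log2 fold change of day 4 against day 0 for the 32 panel genes in C2C12 cells (x axis) and primary cells (y axis), with bars of 1 SE. The y values and bars come from the fit of 9 primary libraries, and the x values, their bars and the colours from the fit of 12 libraries. The plotted gap between cell types is therefore not exactly the tested difference. Genes whose difference passed an adjusted p of 0.05 are purple and named; 11 of them, Igf2, Chrng, Neb and Myog among them, lie below the grey line of equal change, and Myh4 lies above it, while with the replicate block, which the plot does not use, 14 passed below it and 6 above.

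Among the genes furthest apart, Capn3 went from 0.304 to 187 CPM in primary cells and from 8.08 to 70.1 CPM in C2C12 cells (6.13 ± 0.30, adjusted p = 1.49e-06), and Dio2, the enzyme that activates thyroid hormone, fell from 272 to 130 CPM in primary cells and rose from 13.1 to 310 CPM in C2C12 cells (-5.63 ± 0.25, adjusted p = 7.4e-07). Mest went from 2974 to 56.8 CPM in primary cells and was at 164 and 149 CPM in C2C12 cells (-5.57 ± 0.66, adjusted p = 0.000344). The fall of Dio2 in primary cells was called with all cultures (-1.05 ± 0.23, adjusted p = 0.00591) and lost without culture 1 (0.069) or culture 2 (0.089).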

How the data were processed

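RNA was sequenced as paired-end reads, and the authors used Kallisto to assign them to mouse transcripts (mm10 per the labels). The deposited tables give, for each transcript and library, an estimated count and a TPM value. Estimated counts were summed over transcripts to 30205 GENCODE genes and rounded. Of 88198 transcripts, 86031 matched the annotation; the others held 0.759% to 0.865% of counts in the primary libraries. TPM values, deposited by the authors, were summed per gene and used only to compare levels between genes. Groups were taken from the labels.

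Genes were filtered with filterByExpr, scaled by TMM and tested with edgeR 4.0.16 (R 4.3.3) by its quasi-likelihood test over the 9 primary libraries (day 0, 4 and 7), with Benjamini-Hochberg adjustment and a threshold of 0.05. The SE was derived from the fold change and the F statistic. The difference from C2C12 cells was an interaction over 12 libraries. CPM of single genes are TMM-scaled, and summed CPM are not. Script steps were tested on simulated data. Alternatives were DESeq2 1.42.0, RLE size factors, no filter, other sets of libraries, the replicate block, and each library or culture left out. The block with 6 libraries and the block in DESeq2 were added after seeing the data.

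Replicate numbers were taken to pair the samples: deviations from the group means of same-numbered day 0 and day 4 libraries correlated across genes at 0.316, 0.509 and 0.549. Those of cultures 1 and 2 also correlated with each other across the days (0.312 and 0.353), so the check separates culture 3 but does not match cultures 1 and 2 to their own numbers. The pairing comes from the numbers in the labels.

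Genes were named by a rule: the 10 largest called rises and 10 largest called falls among genes averaging 2 or more on the log2 CPM scale without overlap, at most 4 genes per list taken by adjusted p, a panel, and the 6 highest and 6 lowest differences from C2C12 cells. Other list members were named after their values were seen. Some genes that the rule or lists cover are not reported here by name. The members, lists and rules were chosen with earlier results of these data known. Some listed genes did not match a symbol of the annotation and are not analysed here.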

Additional observations from a re-analysis of the deposited data

Results flagged for a closer look

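These results stood out because the change from day 0 to day 4 differed between primary and C2C12 cells by edgeR's quasi-likelihood test of the interaction, at an adjusted p under 0.05. That fit shares its estimate of spread with the C2C12 cultures, so its p-values can understate the spread of the primary cultures. Values are the log2 fold change in primary cells minus that in C2C12 cells.

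In the panel, Pax7 differed by -2.04, Myod1 by -1.91, Myog by -2.02, Id1 by -2.87 and Igf2 by -3.25. The contractile and calcium genes Ttn (-1.45), Neb (-2.51) and Ryr1 (-1.40), the acetylcholine receptor subunits Chrna1 (-1.02) and Chrng (-2.56), and Cdkn1a (-0.81) also had lower changes in primary cells. Myh4 had a higher one (3.28).

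Among the genes with the largest changes in primary cells, Capn3 differed by 6.13, Mest by -5.57, Camk1g by -6.32, Dlk2 by -5.77 and Rgs4 by -6.75. Camk1g, a calcium-dependent kinase, went from 23.8 to 0.546 CPM in primary cells and was at 2.03 and 3.73 CPM in C2C12 cells (means of 3).

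The other genes furthest apart were Dio2 (-5.63), Tex16 (-6.65), Sod3 (7.66), Enpp3 (6.73), Gulp1 (6.68), Prl2c2 (12.94) and Prl2c3 (12.76). In primary cells alone, the rises of Gulp1, Prl2c2 and Prl2c3 were not called by edgeR with all cultures and no block. They were called with the block, with DESeq2 and without culture 3. Sod3, an extracellular superoxide dismutase, went from 0.0971 to 11.8 CPM in primary cells and from 15.5 to 8.86 CPM in C2C12 cells. Tex16 was at 0 in all 3 C2C12 day 0 libraries, so its fitted value depends on the prior count, and its call was lost without the C2C12 day 0 library 2 (adjusted p = 0.055). Prl2c2 and Prl2c3 are near-identical copies whose reads were divided by estimation, so their values are uncertain; Prl2c3 went from 90.9 to 0.301 CPM in C2C12 cells.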

How the results depend on the processing

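With the replicate block, 4018 genes differed between primary and C2C12 cells (1664 higher and 2354 lower in primary cells) against 2639 without it, and the day 4 against day 0 count was 8277 against 6116. The block gave calls for Myog, Cdkn1c and Sln that the same fit did not make without it; leaving out culture 3 also gave all of these calls, and DESeq2 gave those of Cdkn1c and Sln. Leaving out 1 library or culture gave 2090 to 8209 genes changed from day 0 to day 4 (1109 to 4125 higher, 981 to 4084 lower) and 1616 to 3229 differing from C2C12 cells (776 to 1653 higher, 808 to 1613 lower). The cause was not tested. DESeq2 gave 6819 and 3213 genes, RLE size factors 6085 and 2475, and no filter 5782 and 2147. RLE moved the median of all tested genes by 0.04 on the log2 scale. Of values for named genes at day 4 against day 0 under the alternatives, 59 lost the call, 47 gained it and 2734 did neither. For the difference these were 3, 24 and 721. No value called by edgeR with all cultures and no block reversed direction. Reversals of values not called there were not counted. The uncalled change of Igf2 was 0.07 with all cultures and -0.11 without culture 3. Precision is limited by 3 cultures per group.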

Other observations

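Interferon-stimulated genes, which answer viral and cytokine signals, differed most between cultures. Of 31 tested, 5 were higher and 1 lower at day 4 by edgeR's quasi-likelihood test, against 20.2% and 22.4% of all tested genes. Under the replicate block 13 were higher, without culture 3, 16, and without culture 1 or culture 2, 2. Ifit1 was at 1.37, 1.53 and 0.235 CPM in cultures 1 to 3 at day 0 and at 16.2, 3.71 and 0.940 CPM at day 4, and the days overlapped (adjusted p = 0.121, and 0.00539 with the block). Stat2, a subunit of the interferon-activated factor, rose from 10.8, 11.4 and 12.6 CPM to 29.4, 22.0 and 25.1 CPM, and Tap1, a peptide transporter for antigen presentation, fell from 17.0, 17.8 and 17.8 CPM to 6.03, 3.85 and 4.70 CPM.

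Of 21 splicing regulators, 3 were higher and 7 lower, with 1 and 3 without culture 2, 1 higher without culture 1, and 5 higher without culture 3 or with the block. Srpk3, a muscle kinase of splicing factors, rose from 8.33, 10.3 and 5.48 CPM to 43.3, 54.5 and 64.2 CPM, and Ptbp1, a repressor of tissue-specific exons, fell from 117, 135 and 137 CPM to 50.9, 47.0 and 26.6 CPM. Of 20 hypoxia genes, 3 were higher and 6 lower, with 1 and 1 without culture 2. For both lists the shares of all tested genes were 20.2% higher and 22.4% lower. Vegfa, a vessel growth factor, fell from 234, 207 and 209 CPM to 134, 116 and 125 CPM (-0.79 ± 0.15, adjusted p = 0.00307, and 0.078 without culture 2).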
